A study of Oryza sativa Japonica Group with 12 samples.

Results

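Rice roots were examined for 10 genes of ethylene synthesis and perception: 2 ACC synthases (ACS1 and ACS2), 4 ACC oxidases, 3 receptors (ERS1, ERS2 and ETR2) and EIN2. They were taken by a list of RAP identifiers, which was chosen with earlier results of these data known. All 10 were present among the 35833 rows of the deposited table. The names come from the published loci of rice and could not be checked against the files, because the reference table matched 1 of the 35833 identifiers and 0 of the 10. Roots of Nipponbare seedlings were compared between plants whose leaves were sprayed with 300 µM piperonylic acid, an inhibitor of cinnamate 4-hydroxylase, and plants sprayed with a mock solution. Both sprays were applied 13 days after transplanting, with 0.1% Tween 20 per the labels' treatment protocol, and roots were taken 6 h later, at 13 days after transplanting, or 24 h later, at 14 days. Each of the 4 groups (mock 6 h, piperonylic acid 6 h, mock 24 h, piperonylic acid 24 h) held 3 libraries, and each library came from the pooled roots of 4 plants. The series title speaks of roots inoculated with the root-knot nematode Meloidogyne graminicola, and the source names count both times from a second treatment; the labels describe neither the inoculation nor a first treatment, and all 4 groups share whatever was done.

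Ethylene is a gaseous plant hormone. ACC synthase makes its precursor, 1-aminocyclopropane-1-carboxylate (ACC), from S-adenosylmethionine, and ACC oxidase turns ACC into ethylene. The receptors sit in the endoplasmic reticulum and hold the pathway off while ethylene is absent; when they bind ethylene, EIN2 carries the signal on to EIN3-like transcription factors. In rice roots the hormone is known for restricting elongation and for the formation of air spaces (aerenchyma).

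The libraries held 6302056 to 20301774 recovered reads, 11 of them at most 10254382. Values are normalised counts, that is reads at the 3′ end of mRNA after division by each library's size factor, and are compared here between groups for each gene and not between genes. The libraries had the root character of their label: 3 identifiers listed as root markers summed to between 38160 and 55572 normalised counts. Of 9 identifiers listed as leaf and photosynthesis markers, 0 were at 0 in all 12 libraries. Their summed level was 731 to 1965 in mock and 419 to 656 in treated roots at 6 h, and 523 to 1682 and 557 to 1672 at 24 h, so at 6 h the groups did not overlap. The single identifiers did not all follow the sum. At 6 h Os09g0346500 was at 280, 311 and 501 in mock and at 161, 166 and 91.5 in treated roots. Os12g0274700 was at 18.3, 519 and 32.9 against 89.5, 76.6 and 71.9. Among the mock libraries of 24 h, replicate 2 was unlike the others: chi-square divided by its degrees of freedom was 26.4 and 19.9 for its 2 pairs, against 5.14 to 10.4 for the other 10 within-group pairs. Because roots are a mixture of cells, fewer cells of a type and less RNA per cell cannot be told apart in any value below.

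The first comparison asked whether the spray changed these genes in roots at 6 h. ACS1 had the largest log2 difference of the members fitted. It was at 21.9, 26.8 and 32.9 normalised counts in mock roots and at 1.97, 0.995 and 6.54 in treated roots. Every treated library lay below every mock library, and the group means were 27.2 ± 5.50 and 3.17 ± 2.96 (SD, n = 3 each). The reads behind them were few, 82 in mock and 10 in treated roots, and the ratio of mock to treated was 8.54 with an exact 95% counting interval of 4.42 to 18.5. ACS1 averaged 8.59 normalised counts over the 12 libraries, under the minimum mean of 10 set for testing. In the limma fit with no filter, over 31477 genes, ACS1 fell by 2.63 on the log2 scale (SE 0.48, n = 3 per group), with a Benjamini-Hochberg adjusted p of 0.0207. That fit called 0.683% of all genes, and edgeR's quasi-likelihood test on the recovered reads of the same genes, which called 1.3%, gave ACS1 an adjusted p of 0.00152. These fits were used for ACS1 after it was seen to be under the minimum. The limma call was lost at adjusted p from 0.0506 to 0.140 without mock replicate 2, mock replicate 3, treated replicate 1 or treated replicate 2, at 0.0587 with a pseudocount of 0.5, at 0.183 with a replicate block by the source-name numbers, and at 0.231 with the 6 h libraries alone; the log2 change was then between -3.21 and -2.31.

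ACS2, the other ACC synthase, was at 136, 156 and 160 normalised counts in mock roots and at 73.8, 104 and 84.1 in treated roots at 6 h. Here too the groups did not overlap, yet limma's adjusted p was 0.529 for a log2 fold change of -0.79 ± 0.49 (SE). The estimate of spread was shared by all 12 libraries, in which ACS2 varied most within the 24 h mock group. Fitted to the 6 h libraries alone, the same change had an adjusted p of 0.0417.

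Of the 4 ACC oxidases, which catalyse the last step, Os09g0451400 had the largest difference at 6 h. It was at 93.8, 29.6 and 69.6 normalised counts in mock roots against 23.6, 10.9 and 19.6 in treated roots. The lowest mock library was replicate 2, which lay just above the highest treated library. On the log2 scale the fold change was -1.64 ± 0.69 (SE); limma's adjusted p was 0.309 and its unadjusted p 0.0413.

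Os01g0580500 was at 69.4, 41.6 and 63.0 normalised counts in mock roots and at 35.4, 33.8 and 26.2 in treated roots. Its groups were separate as well, with a log2 fold change of -0.81 ± 0.31 (SE), and limma gave an adjusted p of 0.220 and an unadjusted p of 0.0205. The remaining oxidases overlapped between groups. Os02g0771600 was at 374, 325 and 288 in mock roots and at 178, 220 and 315 in treated roots, a log2 difference of -0.50 with a limma adjusted p of 0.572. Os09g0451000 was at 166, 86.9 and 122 against 124, 81.6 and 125, a log2 difference of -0.16 with an adjusted p of 0.933.

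The identifiers place Os09g0451000 and Os09g0451400 on chromosome 9. ACC oxidases resemble each other in sequence, and how reads that fit both were counted is unknown here, so the split between these 2 is uncertain. At 6 h their log2 differences were -0.16, with a 95% interval from -1.33 to 1.02, and -1.64, with one from -3.20 to -0.08. The intervals overlap, and whether the 2 responses differed was not tested.

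**Figure D1:**
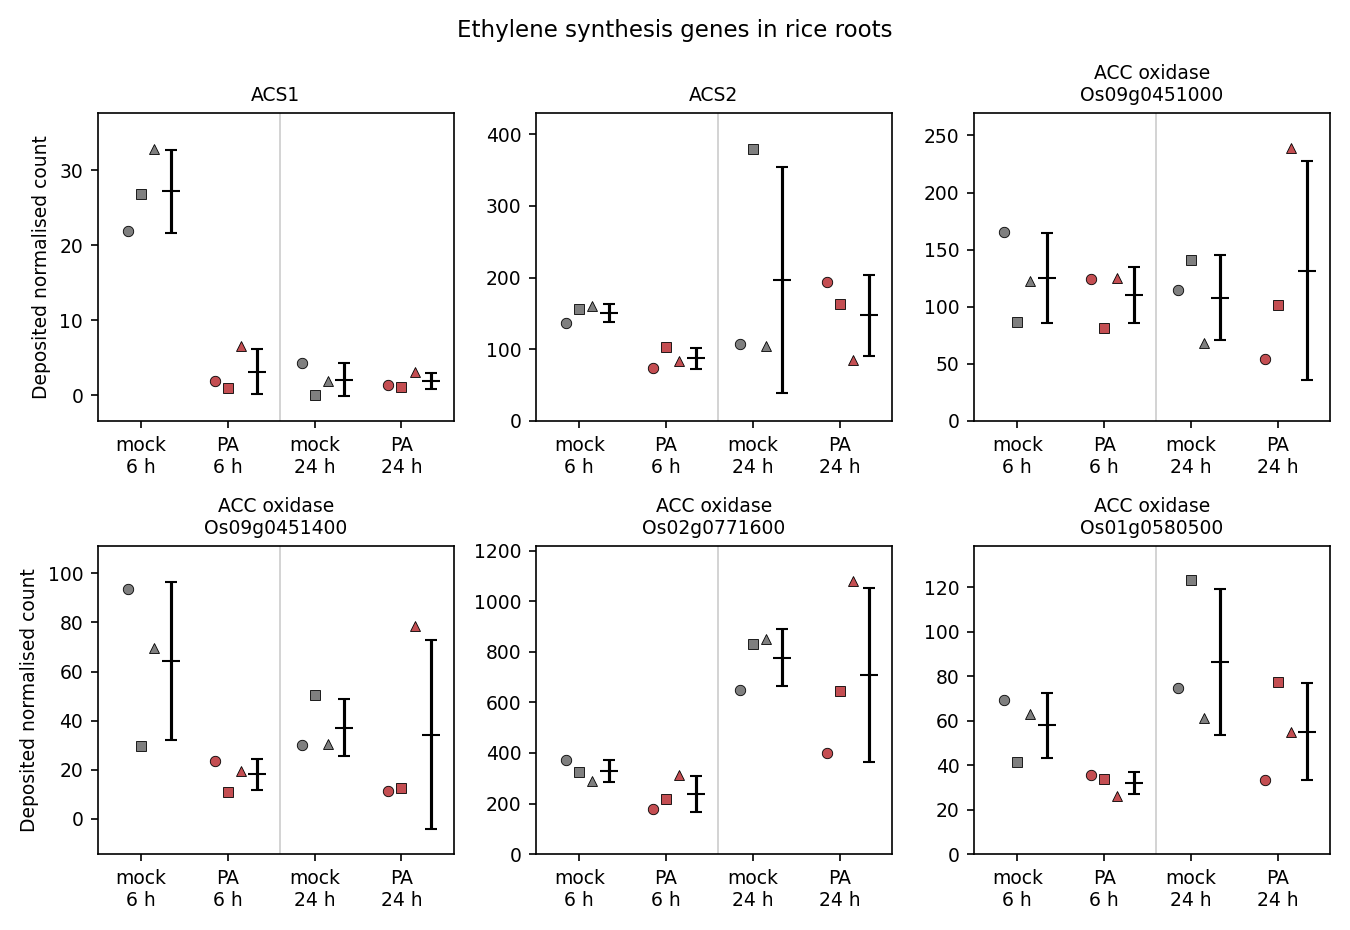
Deposited normalised counts (y axis) of the 6 ethylene synthesis genes in each library, by group (x axis; PA, piperonylic acid). Circles, squares and triangles are replicates 1, 2 and 3, the bar is the mean ± SD of 3 libraries, and the 2 times were scaled separately by the authors. ACS1 was at 21.9 to 32.9 in the 6 h mock libraries and at 6.54 or less in the other 9.

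The receptors differed little at 6 h. ERS1, a subfamily I receptor, was at 464, 485 and 559 normalised counts in mock roots and at 537, 468 and 497 in treated roots. The log2 fold change was -0.0040 ± 0.091 (SE), and its 95% interval ran from -0.20 to 0.19. ERS2, the other receptor of subfamily I, was at 70.6, 104 and 82.7 against 103, 88.6 and 104, a log2 difference of 0.21 with an interval from -0.13 to 0.54. ETR2, of subfamily II, was at 85.2, 113 and 122 against 119, 131 and 86.9, a log2 difference of 0.07 with an interval from -0.30 to 0.43. The groups overlapped for all 3 receptors, and none passed in limma, at adjusted p of 0.990, 0.597 and 0.901. EIN2, the signal carrier, was almost unseen, with 5 reads in all 12 libraries together and reads in 3 of them, so nothing can be said of it here. Why its reads were so few was not tested.

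Counted together, 0 of the 8 members above the minimum mean passed at 6 h in limma, in edgeR and in DESeq2, which called 1.66%, 1.6% and 3.54% of the 19207 genes tested. With a replicate block by the title numbers, taken tentatively to pair the 6 h samples, limma called 802 genes in place of 319, and again 0 of the 8. With a block by the source-name numbers it called 65 genes and 0 of the 8. In that block mock replicate 3 had no treated partner, so it did not enter the treatment effect. An unadjusted limma p under 0.05 was reached by 2 of the 8, the oxidases Os09g0451400 and Os01g0580500, and by 14.8% of all genes. Treated libraries lay wholly below mock libraries in 4 of the 10 members and wholly above in 0. Among the 8 above the minimum mean they were ACS2 and these 2 oxidases, and ACS1 was under it. Of the genes tested, all above that minimum, 9.73% lay wholly below. The median log2 fold change was -0.33 over the 8 members and 0.01 over all genes tested. The leaf marker sum, though not each of its identifiers, was also lower in all 3 treated libraries at 6 h, and its part in these values was not tested.

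**Figure D2:**
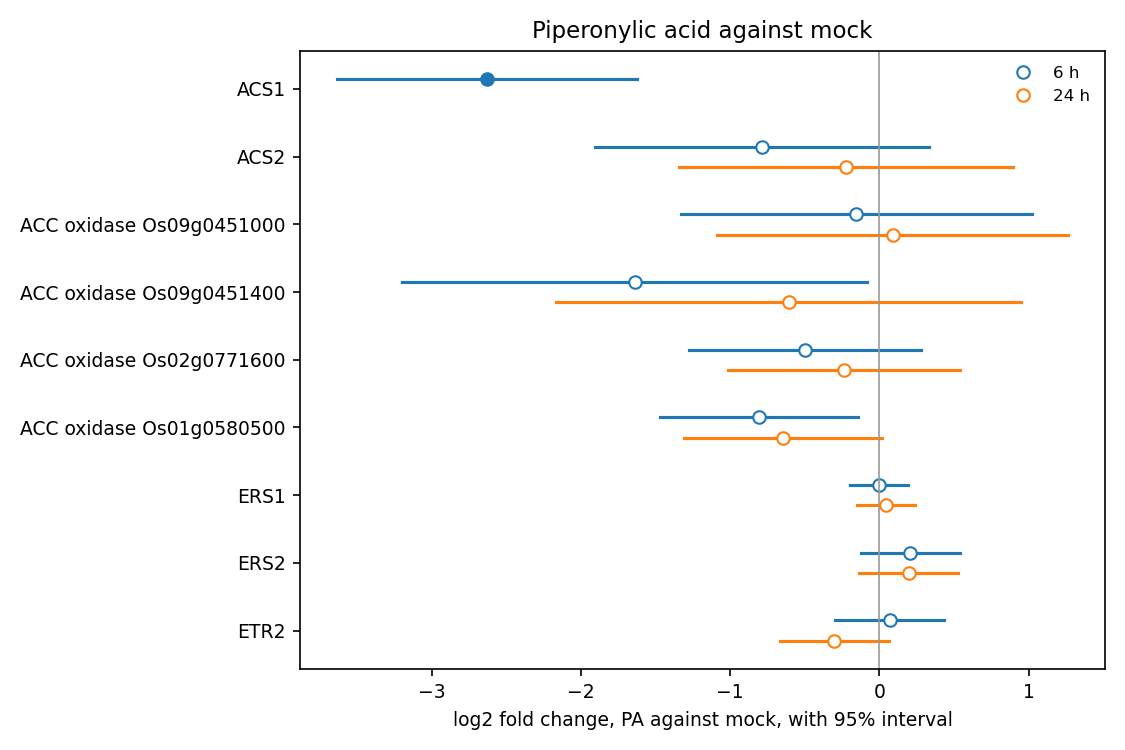
Log2 fold change of piperonylic acid against mock (x axis) for 9 members (y axis) at 6 h and 24 h, with 95% intervals from limma; filled points have an adjusted p under 0.05. ACS1 comes from the fit with no filter and is shown at 6 h only. The intervals of ERS1 lie within -0.20 and 0.24, while those of the synthesis genes are several times wider.

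The same comparison at 24 h found no separated groups. All 10 members overlapped between treated and mock roots, the 8 above the minimum mean among them. Of the genes tested, all above that minimum, 11.8% did not overlap. In limma 0 of the 8 members above the minimum passed, with 0 at an unadjusted p under 0.05, where 6.11% of all genes had one. edgeR and DESeq2 called 0 of the 8 as well, and the 3 tools called 0.115%, 0.135% and 0.276% of all genes. ACS1 was at 4.39, 0 and 1.91 normalised counts in mock and at 1.39, 1.15 and 3.10 in treated roots. These values rest on 11 and 5 reads. The log2 difference fitted by limma with no filter was 0.04, with a 95% interval from -0.96 to 1.05, and its sign changed with the pseudocount and with the libraries left out.

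The direction of ACS2 at 24 h depended on which libraries entered. It was at 107, 379 and 105 normalised counts in mock roots and at 195, 163 and 84.8 in treated roots. The value of 379 belongs to mock replicate 2, the library unlike its fellows. The log2 difference was -0.22 with all libraries, 0.38 without that one and 0.13 without treated replicate 3, and limma's adjusted p with all libraries was 0.970.

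Treated replicate 3 was high for 3 oxidases at 24 h. Os02g0771600 was at 649, 832 and 851 normalised counts in mock roots and at 400, 647 and 1079 in treated roots. Os09g0451400 was at 30.2, 50.4 and 30.6 against 11.1, 12.7 and 78.6. Os09g0451000 was at 115, 141 and 67.9 against 54.2, 102 and 239. In each the highest of the 6 libraries was treated replicate 3, with the other 2 treated libraries below at least 2 of the mock libraries. Their log2 differences were -0.24, -0.61 and 0.09, and without that library they were -0.60, -1.45 and -0.46.

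Os01g0580500 was at 74.6, 123 and 61.2 normalised counts in mock roots at 24 h and at 33.3, 77.4 and 54.8 in treated roots, a log2 difference of -0.64 ± 0.31 (SE) at which limma's adjusted p was 0.823. It was the oxidase with the smallest p at both times. No receptor passed in limma at 24 h. ERS1 was at 705, 648 and 657 in mock and at 695, 691 and 685 in treated roots, with a 95% interval of the log2 difference from -0.15 to 0.24. ERS2 was at 114, 101 and 123 against 113, 142 and 134, a log2 difference of 0.20. ETR2 was at 232, 273 and 203 against 189, 212 and 170, a log2 difference of -0.30 with an interval from -0.67 to 0.06.

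Whether the treatment effect differed between the times was tested as the effect at 24 h minus that at 6 h. In limma, edgeR and DESeq2 0 of the 8 members above the minimum passed, where the tools called 0.552%, 0.463% and 1.78% of all genes. An unadjusted limma p under 0.05 was reached by 0 of the 8 and by 11% of all genes. For ACS1 the difference was 2.67 ± 0.67 (SE) on the log2 scale in the limma fit with no filter, which called 0.264% of genes, with an unadjusted p of 0.00102 and an adjusted p of 0.133. The 24 h side of it rests on the few reads given above, and it was 3.52 with a pseudocount of 0.5 and 1.66 with one of 8. Without treated replicate 3 of 6 h the difference was 3.11 and the adjusted p 0.0271. Among the other members the differences lay between -0.37 for ETR2 and 1.03 for Os09g0451400. Without treated replicate 3 of 24 h that of Os09g0451400 was 0.18.

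The times were then compared within each treatment. The authors had scaled the 6 h and 24 h libraries separately, so counts were rescaled together over all 12 libraries for this step, and all values compared between times are on that scale. The hour of day, the age of the plants and the time since the spray move together here and cannot be told apart. ETR2 rose in mock roots, from 94.2, 125 and 135 at 6 h to 209, 246 and 182 at 24 h. All 24 h libraries exceeded all 6 h libraries, and limma gave an adjusted p of 0.00248 for a log2 fold change of 0.84 ± 0.17 (SE). The call held under all alternatives run, including each of the 12 refits without 1 library.

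In treated roots ETR2 was at 132, 145 and 96.4 at 6 h and at 171, 192 and 153 at 24 h. The groups were separate here as well, and limma's adjusted p was 0.0832 for a log2 fold change of 0.47 ± 0.17 (SE). The rise was not shown to differ between treatments, since the difference between these 2 changes is the same contrast as above, -0.37 with an adjusted p of 0.645. ERS1 and ERS2 did not pass between the times in either treatment, at log2 differences from 0.10 to 0.17. In order of group means ETR2 ran from mock 6 h (118 ± 21.4) through treated 6 h (125 ± 25.2) and treated 24 h (172 ± 19.5) to mock 24 h (212 ± 31.9; SD, n = 3 each), and within each time the ranges of the 2 treatments overlapped.

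**Figure D3:**
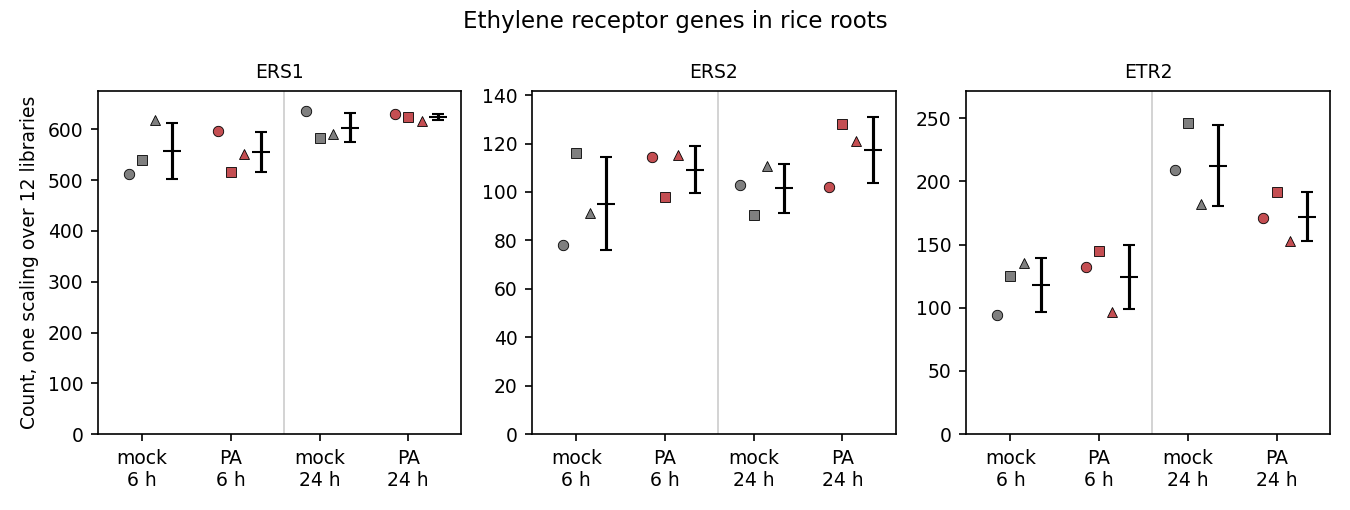
Counts of the 3 receptor genes in each library (y axis, scaled together over the 12 libraries) by group (x axis); symbols mark replicates 1 to 3 and bars the mean ± SD. ETR2 lay between 94.2 and 145 in the 6 libraries of 6 h and between 153 and 246 in those of 24 h.

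The oxidase Os02g0771600 was also higher at 24 h than at 6 h. It was at 413, 361 and 318 in mock roots at 6 h and at 585, 748 and 764 at 24 h, and at 197, 243 and 349 in treated roots at 6 h and 362, 584 and 972 at 24 h. No 24 h library of a treatment was as low as a 6 h library of the same treatment. In mock roots the log2 fold change was 0.93 ± 0.34 (SE), at a limma adjusted p of 0.102. In treated roots it was 1.20 ± 0.34 (SE), at an adjusted p of 0.0487. The latter call was lost in 10 of 12 refits that left out 1 library, at adjusted p from 0.0650 to 0.141, and held without treated replicate 3 of 6 h or treated replicate 1 of 24 h; it was also lost with no filter, at 0.0689, and with the treated libraries alone, at 0.194. In mock roots the gene passed in DESeq2, at an adjusted p of 0.00576, in limma with the mock libraries alone, at 0.000595, and in limma without treated replicate 1 or 3 of 24 h, at 0.0274 and 0.0234.

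ACS1 was the member that fell with time in mock roots, from 24.2, 29.8 and 36.4 at 6 h to 3.95, 0 and 1.72 at 24 h. The groups were far apart, with a log2 fold change of -3.17 ± 0.47 (SE); limma with no filter, which called 10% of genes, gave an adjusted p of 0.000194, and the call held in all refits without 1 library. In treated roots ACS1 was at 3.51 ± 3.29 at 6 h and at 1.70 ± 0.956 at 24 h (SD, n = 3 each). The 6 h mock group was thus the group in which ACS1 was high, and the 2 ACS1 comparisons share those 3 libraries. ACS2 and the oxidases Os09g0451000, Os09g0451400 and Os01g0580500 overlapped between the times in both treatments.

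**Figure D4:**
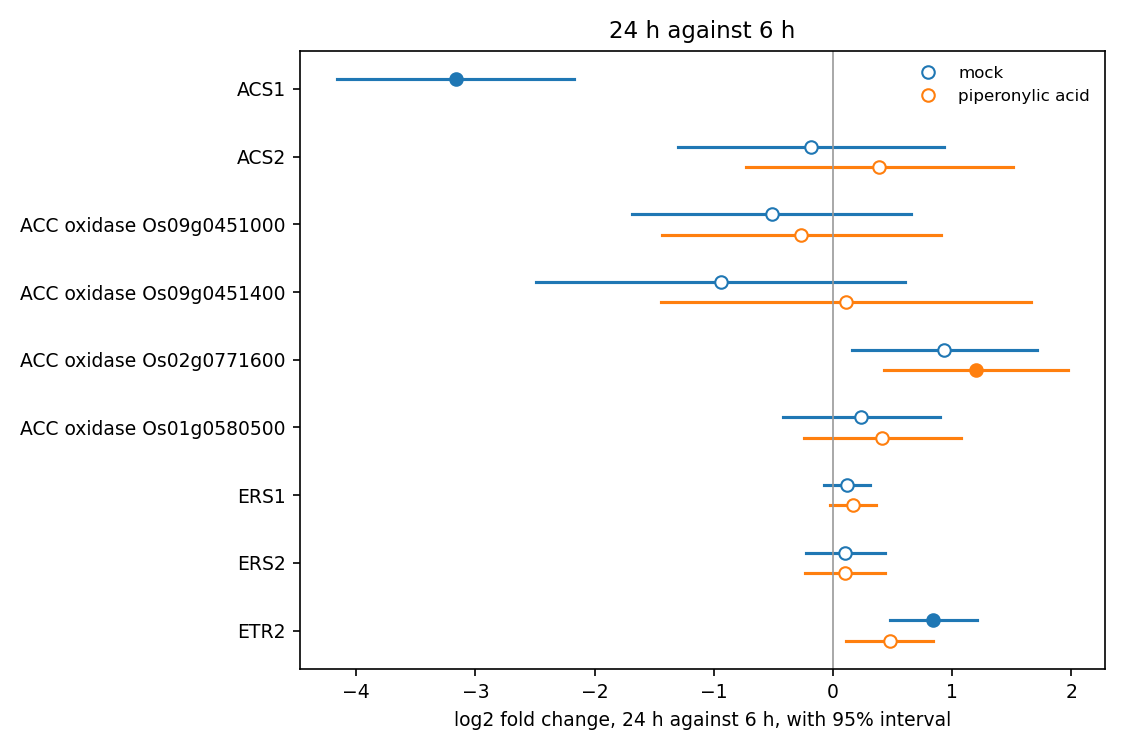
Log2 fold change of 24 h against 6 h (x axis) in mock and in treated roots for 9 members (y axis), with 95% intervals from limma; filled points have an adjusted p under 0.05. ACS1 comes from the fit with no filter and is shown for mock roots only. ETR2 in mock roots, at 0.84, and Os02g0771600 in treated roots, at 1.20, are the filled points above 0.

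Between the times limma called 1 of the 8 members above the minimum in mock roots (ETR2), where it called 17.2% of all genes, and 1 in treated roots (Os02g0771600), where it called 13.9%. Groups were separate in 3 of the 10 members in mock roots and 3 in treated roots, against 33.1% and 31.8% of genes tested. These shares are close to those of the table as a whole. The 3 in mock roots included ACS1, which is under the minimum mean that all genes tested reached. The separation in treated roots included ERS1, at 517 to 596 at 6 h and 617 to 629 at 24 h. The authors' own scaling moves the median log2 change of all genes to 0.30 in mock roots and 0.29 in treated roots. On it 3 of the 8 members passed in each treatment. Of the 19207 genes tested, limma then called 7943 in mock roots and 7187 in treated roots.

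Across the 12 libraries, as a description over libraries that share the division into times, the 2 chromosome 9 oxidases had a Pearson r of 0.742 on the log2 scale, the highest between any members. ERS1 and ETR2 followed at 0.611. The lowest value was -0.49, between ACS2 and ERS2. Of all genes tested, the one most like Os09g0451400 was Os03g0306800, at 0.974, and the one most like ETR2 was Os11g0707800, at 0.951; the files give neither a name. For the 8 members the closest gene had an r of 0.907 to 0.974. Each is the highest value over all genes tested, and how high it runs for genes outside the members was not tested.

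For the pathway around these genes 30 further identifiers were listed from published loci, and 26 could be tested. The files do not pair them with names, so they are given by list and identifier. At 6 h 1 of the 26 was lower in treated roots and 0 were higher in limma, which called 173 of the 19207 genes tested lower (0.901%). DESeq2 called 2 of the 26 lower, and 456 of the 19207 genes. The limma call was Os07g0685700, from the list for signalling downstream of the receptors. It was at 364, 445 and 589 normalised counts in mock and at 234, 241 and 328 in treated roots, a log2 fold change of -0.79 ± 0.16 (SE) at an adjusted p of 0.0303. The call was lost at 0.0558 to 0.146 without mock replicate 2 or 3 or treated replicate 1 or 2 of 6 h or treated replicate 2 of 24 h, at 0.0763 with the source-name block and at 0.128 with the 6 h libraries alone. At 24 h 0 of the 26 passed in limma, edgeR and DESeq2, with 0 at an unadjusted limma p under 0.05. Of the 5 other synthesis genes that could be tested, 0 passed at 6 h; their log2 differences ran from -0.24 to 0.75, with a median of 0.22. The median log2 fold change of the 26 was -0.05 at 6 h and -0.12 at 24 h.

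With time, 8 of these 26 rose and 3 fell in mock roots, and 8 rose and 3 fell in treated roots. Of all genes limma called 8.1% higher and 9.13% lower in mock roots, and 6.82% and 7.12% in treated roots. On the deposited scaling 14 of the 26 rose and 2 fell in mock roots, and 13 rose and 1 fell in treated roots. Of the 19207 genes tested on that scaling, limma called 6867 higher and 1076 lower in mock roots. In treated roots it called 6390 higher and 797 lower. In the list for the methionine cycle, which supplies and recovers S-adenosylmethionine, 5 of 6 tested genes rose in mock roots, at log2 fold changes of 0.36 to 0.93, and 4 rose in treated roots, at 0.35 to 0.86. In the signalling list 2 of 8 rose and 1 fell in mock roots, and 3 rose in treated roots. Of the 4 listed response factors 1 rose and 2 fell in each treatment. The rise with the smallest adjusted p was Os01g0323600 in mock roots, from the methionine cycle list, at 0.93 ± 0.12 (SE) and a limma adjusted p of 3.26e-05. In treated roots it was Os06g0605900, from the signalling list, at 0.97 ± 0.11 (SE) and 1.79e-05. The fall with the smallest adjusted p in both treatments was Os02g0782700, from the response factor list, at -0.52 and -0.51 and adjusted p of 0.000272 and 0.000380. In treated roots 1 listed receptor fell as well, by 0.42 on the log2 scale. Of the 5 other synthesis genes, 0 passed in limma between the times in either treatment. Their log2 differences ran from -0.33 to 2.33 in mock roots and from -0.22 to 0.99 in treated roots. The highest in both was Os05g0149400. In mock roots its 95% interval ran from 0.41 to 4.24, at a limma adjusted p of 0.103.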

How the data were processed

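Tools listed in the submitters' processing notes are STAR 2.6.1d, Trimmomatic 0.38, FastQC 0.11.8 and DESeq2. For the read counter, the build and the annotation, the name was not given in the sources used here. Libraries were made with a 3′ mRNA kit from 2 µg of RNA, per the labels' protocols. The signal deposited by the authors is each gene's reads over a library size factor, as seen from the values: at least 99.985% of values above 0 were whole multiples of 1 read within 0.01, so reads were recovered. The factors were those of each time scaled alone, and differed by up to 11.3% from factors over all 12 libraries.

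Values were taken as log2(normalised count + 2), which understates changes of low genes, for 19207 genes with a mean of at least 10. limma 3.58.1 (R 4.3.3; 4 group means, trend, robust) fitted all 12 libraries, with Benjamini-Hochberg adjustment over all genes at 0.05. Treatment effects and their difference used the deposited scaling, comparisons of times a common one. edgeR 4.0.16 and DESeq2 1.42.0 on recovered reads, other pseudocounts, filters and scalings, sample weights, replicate blocks and leaving out each library were alternatives. ACS1 and EIN2 were under the minimum and were fitted with no filter. The procedure was tested on simulated data. Members and lists were chosen with earlier results of these data known. The rule for named genes asked for every listed pathway gene that passed; because the files pair no identifier with a name, only the rise and the fall with the smallest adjusted p per comparison are printed. Nothing states separate cultures, so p measures the spread between these pooled samples, and counting intervals cover counting error only.

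Same-numbered mock and treated samples deviated together at 6 h, with correlations of 0.305, 0.288 and 0.126, and the title numbers were taken to pair them there; at 24 h these were -0.187, 0.0505 and 0.0212. The source names give 3 treated samples another number, so the pairing is tentative. By the source names mock replicate 3 had no treated partner at either time. The block by those numbers therefore left it out of the treatment effects.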

Additional observations from a re-analysis of the deposited data

How the results depend on the processing

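ACS1 and EIN2 rest on few reads, and each group held 3 libraries. Members called at 6 h numbered 0. With no filter in limma or edgeR 1 was called, ACS1, which the main fit left out. With only the groups compared 1 was called, ACS2, and the cause of that call was not tested. In mock roots 1 member passed between the times, 2 in DESeq2, with no filter, in edgeR with no filter and with only the groups compared, and 3 on the deposited scaling; in treated roots 1 passed, 0 with no filter in limma or edgeR and with only the groups compared, 2 with sample weights and 3 on the deposited scaling. Without 1 library these 2 counts ran from 1 to 2 and from 0 to 1, and for the treatment comparisons and their difference they stayed at 0.

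Genes called were 319 at 6 h, 22 at 24 h and 106 for the difference. They were 679, 53 and 342 in DESeq2, 686, 40 and 239 with sample weights, and 65, 0 and 25 with a replicate block by the source-name numbers, where 1330 had an unadjusted limma p under 0.05 at 24 h. The replicate block by the title numbers gave 802, 26 and 376. The count was 152 at 6 h with only those groups, and edgeR with no filter gave 48 at 24 h and 196 for the difference. Without 1 library the counts ran from 4 to 741, 3 to 30 and 38 to 471. Between the times 3310 and 2677 genes passed in mock and treated roots, 7943 and 7187 on the deposited scaling, and 2462 to 3345 and 1899 to 2875 without 1 library. On the common scaling 1556 were higher and 1754 lower in mock roots, and 1309 and 1368 in treated roots; on the deposited one 6867 and 1076, and 6390 and 797.

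The log2 differences that changed sign had no call. With the source-name block ERS1 was 0.0781 at 6 h, Os09g0451000 was -0.37 at 24 h, and the differences between times were -0.19 for Os09g0451000, -0.17 for Os01g0580500, -0.0380 for ERS1 and 0.0082 for ERS2. That of ERS2 was also 0.0235 in edgeR, 0.0191 in DESeq2, 0.0131 with sample weights and 0.0060 in edgeR with no filter. At 24 h ACS1 was -0.42 in edgeR with no filter, -0.0138 with a pseudocount of 8 and -0.23 with sample weights. With sample weights ACS2 was 0.14 at 24 h and Os09g0451400 was -0.0630 between the times in treated roots. In mock roots between the times ACS2 was 0.0212 in edgeR, 0.0752 in DESeq2, 0.11 on the deposited scaling and 0.0369 in edgeR with no filter, and in treated roots Os09g0451000 was 0.0225 on the deposited scaling. Without 1 library, at 6 h Os09g0451000 ran from -0.39 to 0.0692, ERS1 from -0.0595 to 0.0748 and ETR2 from -0.0820 to 0.24. At 24 h ACS1 ran from -0.40 to 0.44, ACS2 from -0.53 to 0.38, Os09g0451000 from -0.46 to 0.59 and Os02g0771600 from -0.60 to 0.11. The differences between times ran from -0.31 to 0.74 for Os09g0451000, -0.10 to 0.61 for Os02g0771600, -0.11 to 0.47 for Os01g0580500, -0.0315 to 0.10 for ERS1 and -0.16 to 0.12 for ERS2. Between the times ACS2 ran from -0.79 to 0.13, Os01g0580500 from -0.0441 to 0.45 and ERS2 from -0.0268 to 0.25 in mock roots, and Os09g0451000 from -0.82 to 0.23 and Os09g0451400 from -0.73 to 0.57 in treated roots. Of the 1170 values of single genes under alternatives, 1074 kept direction and call, 31 lost a call, 11 gained one and 54 changed sign; the causes were not tested.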
